A study of Mus musculus with 10 samples.

Results

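The genes described here encode the transferases that join glutathione, a sugar or sulfate to another molecule: the glutathione S-transferases (Gst and Mgst symbols), the UDP-glucuronosyltransferases and their relatives (Ugt) and the sulfotransferases (Sult). They were taken by symbol, as protein-coding genes named Gsta, Gstk, Gstm, Gsto, Gstp, Gstt, Gstz, Mgst, Ugt1 to Ugt3 or Sult with a number, and no measured difference entered the choice. Of 55385 genes in the tables, 51 were such genes with at least 10 estimated counts summed over the 10 libraries. The other 16 genes with such symbols lay under 10 counts, among them Sult2a1, Sult2b1, Ugt2a1 and Gstt4. By family there were 4 Gsta, 7 Gstm, 10 other cytosolic or organelle Gst, 3 Mgst, 8 Ugt1a, 9 Ugt2, 2 Ugt3a, 5 Sult1 and 3 other Sult genes.

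RNA came from frozen whole mouse liver of 2 groups, with 5 libraries from controls and 5 from animals labelled Alk1-HEC-KO. The series title names Alk1, also called Acvrl1, as the deleted gene. The labels give no strain, age, sex, treatment or Cre driver, do not spell out HEC and do not say what alleles the controls carried. Nothing in them says that the libraries of a group are separate animals, so each p measures the spread between these libraries. In bulk tissue, fewer cells of a type and less RNA per cell cannot be told apart.

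The transcript of the targeted gene was higher in the labelled knockout, not lower, without passing the test. Acvrl1 stood at 1.05, 0.296, 0.391, 0.661 and 0.951 TPM (transcript level per length, as a part of each library's fixed sum) in control libraries 1 to 5 and at 1.15, 1.39, 1.22, 1.92 and 1.12 TPM in the libraries labelled knockout. Every labelled knockout library was above every control in TPM (log2 fold change 0.99, SE 0.32, adjusted p = 0.34 in edgeR's quasi-likelihood test). Of 6 endothelial markers, 5 had log2 fold changes above 0 and 1 below, with a median of 0.35. Pecam1 was at 1.02 (SE 0.28, edgeR adjusted p = 0.26) and Clec4g at -0.02. The part of endothelial cells in the Acvrl1 level was not tested. The Acvrl1 values are totals per gene, so the loss of single exons was not tested. The second group is therefore called the labelled knockout throughout, and each direction rests on those labels. Depth was even, at 20.91 to 21.56 M (mega) estimated counts per library, and the summed level of 5 hepatocyte markers ran from 39837 to 71289 TPM in controls and from 40695 to 76129 TPM in labelled knockouts. The Y-linked Ddx3y was present in all 10 libraries. Labelled knockout libraries 4 and 5 and control library 4 held the acute phase transcript Saa1 above 1000 TPM, and control libraries 1 and 2 held the immediate early gene Fos above 20 TPM.

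These enzymes carry out conjugation, the step in which the liver makes reactive or poorly soluble compounds more water soluble. Glutathione transferases attach the thiol of glutathione to electrophiles, UDP-glucuronosyltransferases of the endoplasmic reticulum attach glucuronic acid to bilirubin, steroids and drugs, and sulfotransferases pass sulfate from the donor PAPS to phenols, steroids and bile acids. Within the liver lobule many such enzymes are more abundant in hepatocytes around the central vein, where Wnt signalling from endothelial cells maintains pericentral genes such as Glul.

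A single gene of the 51, Gstm2, passed the test between the groups. Of the 46 genes with enough counts to be tested, Gstm2 was called lower and none was called higher by edgeR's quasi-likelihood test at a Benjamini-Hochberg adjusted p under 0.05. That is 2.17% of the tested transferase genes, against 0.171% called lower (22 genes), 0.186% called higher and 0.357% in both directions among all 12872 genes tested. No transferase gene was higher at an unadjusted p under 0.05, as 5.03% of all tested genes were, and DESeq2 and limma called none higher. At an unadjusted p under 0.05, 14 of the 46, or 30.4%, were lower, where 3.42% of all tested genes were lower and 8.44% passed in both directions. Log2 fold changes lay below 0 for 40 of the 46 (87.0%, against 49.6% of all tested genes), with a median of -0.31 beside 0.002 over all tested genes.

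These counts moved with single libraries and with the processing, while Gstm2 kept its call. The number lower at an unadjusted p under 0.05 was 22 without labelled knockout library 1 and 12 without labelled knockout library 5. It was 6 without the control libraries high in Fos, and 4 with the run as a covariate. The share of all tested genes that were lower moved as well. In the same order it was 6.36%, 1.9%, 1.54% and 1.48%, beside 3.42% in the main fit. A run is a stretch of consecutive numbers in the names under which the libraries were deposited. There are 3, and the labels give no meaning for them. The first holds control libraries 1 and 2 and labelled knockout library 1. The second holds control libraries 3, 4 and 5 and labelled knockout library 3, and the third labelled knockout libraries 2, 4 and 5. The median log2 fold change of the tested transferase genes was -0.19 without labelled knockout library 5 and -0.16 with the run covariate.

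**Figure D1:**
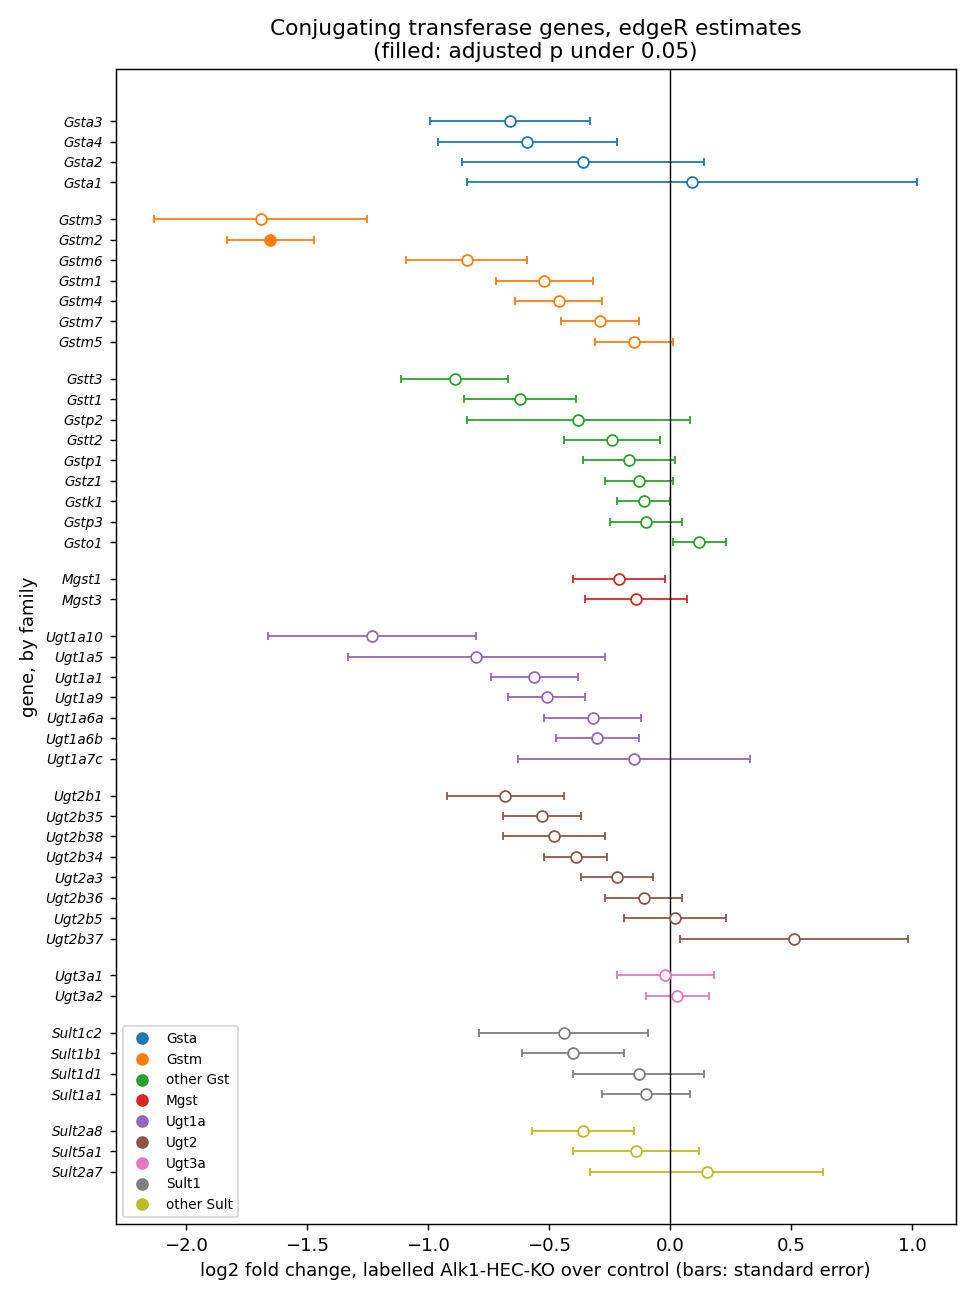
Log2 fold change of the labelled knockout over control for each of the 46 tested transferase genes, grouped by family, with bars of 1 standard error (derived from edgeR's F statistic) and a filled point for an adjusted p under 0.05. The filled point is Gstm2 at -1.65, and 40 of the 46 points lie left of 0.

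Gstm2 belongs to the mu class of the glutathione transferases. Mu-class enzymes conjugate glutathione to epoxides and other electrophiles in the cytosol, and their 7 genes lie within 149 kb on chromosome 3 (107895821 to 108044894, GRCm38) in the order Gstm5, Gstm7, Gstm6, Gstm3, Gstm2, Gstm1 and Gstm4. Gstm2, Gstm3 and Gstm1 are neighbours on the minus strand. The bases just upstream of their annotated starts are shown because Gstm2 is the called gene and Gstm3 and Gstm1 flank it. The windows come from RefSeq (GRCm38.p6), each on the minus strand and written 5′ to 3′, and capitals mark matches to the motifs searched. They are chr3:108017974-108018223 for Gstm1, chr3:107986454-107986670 for Gstm2 and chr3:107969284-107969424 for Gstm3.
Gstm1: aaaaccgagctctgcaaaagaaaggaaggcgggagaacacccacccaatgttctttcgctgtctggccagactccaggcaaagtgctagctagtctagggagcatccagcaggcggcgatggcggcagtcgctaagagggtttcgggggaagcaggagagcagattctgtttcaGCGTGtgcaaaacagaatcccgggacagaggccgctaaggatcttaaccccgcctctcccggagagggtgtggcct
Gstm2: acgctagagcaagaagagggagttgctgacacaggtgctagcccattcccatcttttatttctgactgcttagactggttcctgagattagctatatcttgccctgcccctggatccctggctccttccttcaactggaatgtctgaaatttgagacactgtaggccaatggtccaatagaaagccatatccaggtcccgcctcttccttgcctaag
Gstm3: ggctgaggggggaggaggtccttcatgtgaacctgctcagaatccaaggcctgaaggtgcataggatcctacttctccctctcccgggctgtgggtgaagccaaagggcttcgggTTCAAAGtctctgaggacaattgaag

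On both strands, 4 motifs were searched by their letters: TGACNNNGC, the core of the antioxidant response element, GCGTG, the core of the xenobiotic response element, and CTTTGAT and CTTTGAA, forms of the site of TCF/LEF, the factors at the end of Wnt signalling. The Gstm1 window held GCGTG, which 28.2% of 32851 windows of up to 250 upstream bases held. The Gstm3 window held CTTTGAA on the opposite strand, found in 4.46% of the windows, and no match lay in the Gstm2 window. The Gstm2 and Gstm3 stretches shown are cut to 217 and 141 bases, outside the annotated genes, while the shares are for uncut windows. In the uncut windows of 250 bases both genes had the same matches. Among the 57 windows of the 46 transferase genes with a RefSeq entry, TGACNNNGC was in 4 (10.2% of all windows), GCGTG in 10, CTTTGAT in 1 (3.21% of all windows) and CTTTGAA in 5. A match is a string of letters and was not tested for binding.

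Gstm2 (ENSMUSG00000040562.12, chromosome 3, 107981702 to 107986453) was lower in every labelled knockout library. Control libraries 1 to 5 held 108, 134, 71.9, 101 and 87.4 TPM, and labelled knockout libraries 1 to 5 held 48.1, 30.3, 40.6, 28.4 and 20.6 TPM. The lowest control lay above the highest labelled knockout, and no other tested transferase gene had groups apart in TPM. Among all tested genes, 0.319% were apart with the labelled knockout lower and 1.31% with it higher. The mean was 100 ± 23.4 TPM in controls and 33.6 ± 10.8 TPM in the labelled knockout (SD, n = 5 each), a ratio of 0.334. In edgeR's quasi-likelihood test the log2 fold change was -1.65 (SE 0.18, adjusted p = 0.00083), the fifth smallest p of all genes tested. Over 23 alternatives the call held in all 23, with log2 fold changes from -1.82 to -1.33 and adjusted p from 6.7e-14 to 0.021. Among the 23 is the looser threshold of 0.10 in the main fit, where the call could not be lost. Within the first run, the labelled knockout library differed from the mean of 2 controls by -1.29 in log2 CPM (counts scaled by library size), and within the second the difference was -1.36 against 3 controls. The third run holds 3 labelled knockout libraries only.

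Gstm3, next to Gstm2, had a fold change as large but a wider spread. Control libraries held 92.5, 96.1, 45.1, 123 and 73.2 TPM and labelled knockout libraries 43.1, 12.0, 50.7, 25.6 and 8.29 TPM. Labelled knockout library 3 lay above control library 3, so the groups overlapped in TPM. In log2 CPM the groups of Gstm3 did not overlap, with the labelled knockout lower. The share of all tested genes apart in log2 CPM was not counted. Its log2 fold change of -1.69 (SE 0.44, adjusted p = 0.26 in edgeR's quasi-likelihood test) did not pass, although DESeq2 gave an adjusted p of 0.0013. Within the first and second runs its differences in log2 CPM were -1.10 and -0.83, beside -1.93 over all libraries, and with the run covariate its log2 fold change was -0.99.

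Gstm1, by far the most abundant mu-class gene, overlapped between the groups. It held 2952, 2592, 1780, 2832 and 2568 TPM in controls and 2298, 1889, 2478, 1631 and 1025 TPM in labelled knockouts. Labelled knockout libraries 1, 2 and 3 lay above the lowest control, and libraries 4 and 5 below it (log2 fold change -0.52, SE 0.20, edgeR adjusted p = 0.51). Gstm6 held 107, 135, 79.2, 113 and 106 TPM in controls and 107, 54.3, 81.3, 54.6 and 25.1 TPM in labelled knockouts, with library 1 of the latter at the control level. Its log2 fold change was -0.84 (SE 0.25, edgeR adjusted p = 0.31), and without labelled knockout library 1 it was -1.13 with an adjusted p of 0.020. With the run covariate it was -0.36, and without labelled knockout library 5 it was -0.66, with neither called. Within the first and second runs its differences in log2 CPM were -0.15 and -0.57. The other mu-class genes, Gstm4, Gstm7 and Gstm5, overlapped and had log2 fold changes from -0.46 to -0.15.

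Gstm2 and Gstm3 were also set against Gstm1, whose gene lies in the same cluster. As a percentage of the Gstm1 level in the same library, Gstm2 TPM was 3.65, 5.18, 4.04, 3.56 and 3.40 in controls and 2.09, 1.60, 1.64, 1.74 and 2.01 in labelled knockouts. These percentages did not overlap (3.97 ± 0.717 in controls and 1.82 ± 0.222 in labelled knockouts, SD, n = 5). Gstm2 was already apart in TPM, so its percentages are not a separate result. How many of all tested genes are apart when divided by Gstm1 was not counted. For Gstm3 the percentages were 3.31 ± 0.713 and 1.39 ± 0.633, also apart, while those of Gstm4 were 2.12 ± 0.102 and 2.23 ± 0.265 and overlapped. The percentages for Gstm5, Gstm6 and Gstm7 overlapped as well. Part of their sequence was shared with other annotated genes. Of the 31-base words of Gstm2 transcripts, 87.8% occurred in no other gene's transcripts, as did 71.2% of those of Gstm1 and 62.3% of those of Gstm3. The gene sharing most words was Gm6665 for Gstm2 (5.8%), Gstm2-ps1 for Gstm1 (22.6%) and the predicted gene Gm8834 for Gstm3 (24.7%).

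**Figure D2:**
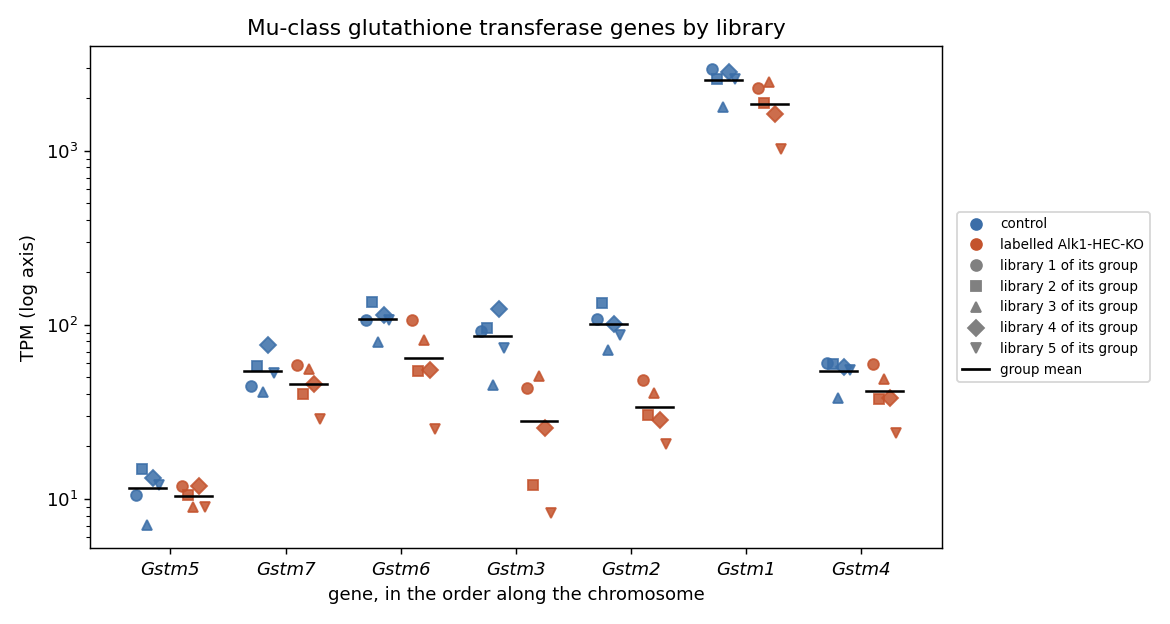
TPM of the 7 mu-class genes in each of the 10 libraries on a log axis, with a horizontal line at each group mean and 1 marker shape per library number. Gstm2 is the gene whose groups do not overlap in TPM, with the lowest control at 71.9 TPM and the highest labelled knockout at 48.1 TPM.

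Most markers of the pericentral zone were lower, as Gstm2 was. Of 11 pericentral hepatocyte markers tested, 10 had log2 fold changes below 0 and 1 above, 7 were called lower by edgeR's quasi-likelihood test, 9 by DESeq2 and 5 by limma, and the median log2 fold change was -1.87. Their summed level was 4208 to 5224 TPM in controls and 1022 to 3264 TPM in labelled knockouts. Glul, the glutamine synthetase of the hepatocytes next to the central vein, fell from 283 ± 48.5 to 32.5 ± 10.9 TPM (log2 fold change -3.24, SE 0.20, edgeR adjusted p = 2.9e-06). Of 10 periportal markers none was called by the 3 tools, 1 was higher at an unadjusted p under 0.05, and the median was 0.12. The part of the pericentral markers in the difference of Gstm2 was not tested.

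The alpha-class genes, which reduce lipid peroxides and conjugate their aldehyde products, varied widely among labelled knockout libraries. Gsta3, the most abundant, held 1383, 1514, 996, 1183 and 1301 TPM in controls and 1524, 532, 1049, 980 and 253 TPM in labelled knockouts. Labelled knockout library 1 was the highest of all 10. Libraries 2 and 5 were far below every control, and library 4 was just below the lowest control (log2 fold change -0.66, SE 0.33, edgeR adjusted p = 0.63). Gsta4, which acts on the lipid aldehyde 4-hydroxynonenal, held 109, 84.5, 56.8, 64.0 and 82.5 TPM in controls and 107, 26.0, 64.0, 57.2 and 23.8 TPM in labelled knockouts, with libraries 2 and 5 again below every control. Its log2 fold change was -0.59 (SE 0.37, edgeR adjusted p = 0.72). With the run covariate the log2 fold changes were -0.20 for Gsta3 and -0.11 for Gsta4, and the family's median was 0.01 in place of -0.47, with 2 genes on each side of 0. Without labelled knockout library 1 Gsta4 was at -0.98, and without library 2 at -0.37. The median was -0.99 without labelled knockout library 1, -0.25 without library 2, -0.29 without library 5 and -0.24 without control library 1. Within the first run the differences in log2 CPM were above 0, at 0.10 for Gsta3 and 0.20 for Gsta4. The summed Gsta level was 1420 ± 235 TPM in controls and 978 ± 570 TPM in labelled knockouts, and the groups overlapped. Gsta2 had a log2 fold change of -0.36 (SE 0.50). Gsta1 ran from 2.1 to 16.2 TPM in controls and from 0.568 to 27.1 TPM in labelled knockouts, and only 7.1% of its 31-base words were its own.

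**Figure D3:**
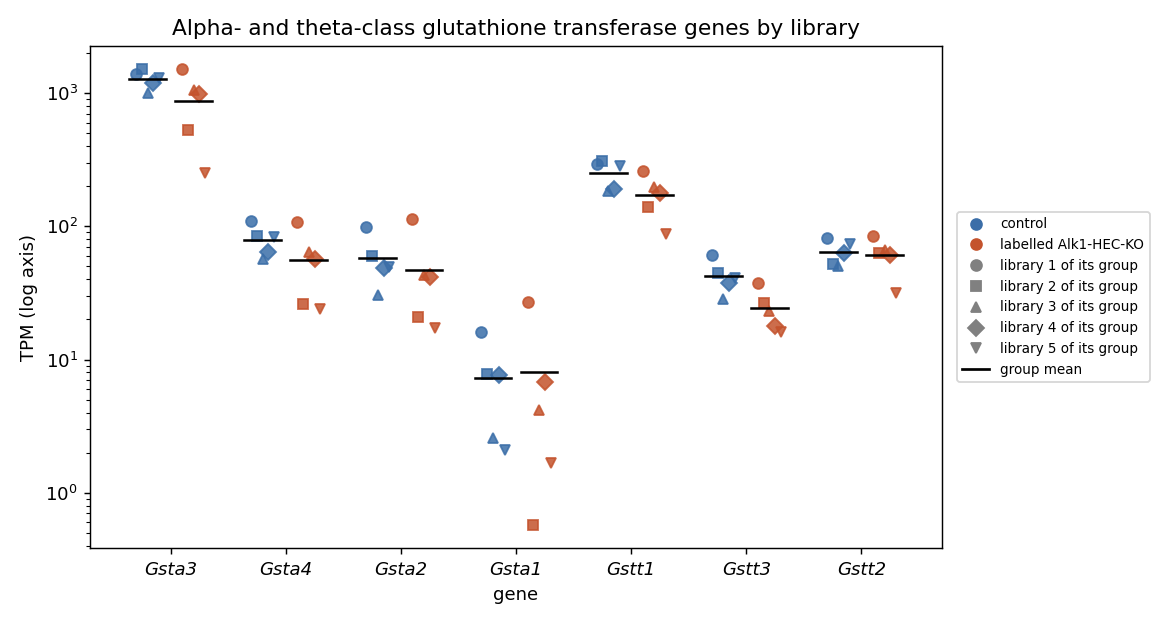
TPM of the alpha-class (Gsta) and theta-class (Gstt) genes in each of the 10 libraries on a log axis, with a horizontal line at each group mean and 1 marker shape per library number. Labelled knockout libraries 2 and 5 are the lowest for Gsta3 at 532 and 253 TPM, and library 1 of that group is the highest at 1524 TPM.

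Among the theta-class genes, which act on small halogenated and epoxide substrates, Gstt3 had the smallest p of the transferase genes outside the mu class. It held 61.0, 44.6, 28.3, 37.6 and 40.6 TPM in controls and 37.5, 26.4, 23.3, 18.0 and 16.1 TPM in labelled knockouts. Only labelled knockout library 1 lay inside the control range, and the others were below every control. The means were 42.4 ± 12.0 and 24.3 ± 8.46 TPM (log2 fold change -0.89, SE 0.22, edgeR adjusted p = 0.17). It was called by DESeq2 (adjusted p = 0.018), with the replicate block and without labelled knockout library 1 (log2 fold change -1.11, edgeR adjusted p = 0.015). It was not called by limma, with the run covariate, or without the libraries high in Saa1 or in Fos. Within the first and second runs its differences in log2 CPM were -0.44 and -0.86. Its neighbours on chromosome 10, Gstt1 and Gstt2, had log2 fold changes of -0.62 (SE 0.23, edgeR adjusted p = 0.47) and -0.24 (SE 0.20, edgeR adjusted p = 0.79).

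The pi-class gene Gstp1 gave the most abundant transferase transcript of these livers, with 43.8% of the summed control TPM of all 51 genes. Controls held 9928, 8700, 9362, 10499 and 14324 TPM and labelled knockouts 11079, 9640, 10891, 9263 and 8460 TPM. All labelled knockouts but library 5 lay in the control range (log2 fold change -0.17, SE 0.19, edgeR adjusted p = 0.84). Gstz1, the maleylacetoacetate isomerase of tyrosine breakdown, held 453, 558, 384, 509 and 495 TPM in controls and 544, 450, 509, 452 and 321 TPM in labelled knockouts. Labelled knockout library 5 was the lowest of the 10 and the rest overlapped (log2 fold change -0.13, SE 0.14, edgeR adjusted p = 0.84). Gstk1, found in mitochondria and peroxisomes, had the smallest control spread of the tested transferase genes, with a coefficient of variation of 9.25%, and its means were 144 ± 13.3 and 141 ± 19.0 TPM. Gsto1, which reduces dehydroascorbate, was among the 6 transferase genes with a log2 fold change above 0, at 123 ± 13.4 and 142 ± 25.9 TPM.

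Of the membrane-bound glutathione transferases, Mgst1 was second to Gstp1 in level. It held 5996, 5555, 4818, 4774 and 4498 TPM in controls and 6378, 4834, 4614, 4557 and 3231 TPM in labelled knockouts, from a labelled knockout as the highest library to another as the lowest (log2 fold change -0.21, SE 0.19, edgeR adjusted p = 0.80). Mgst3 held 14.0, 13.2, 9.91, 17.4 and 16.4 TPM in controls and 18.8, 11.5, 12.8, 17.1 and 7.43 TPM in labelled knockouts, overlapping in the same way (log2 fold change -0.14, SE 0.21, edgeR adjusted p = 0.89). Gstp1, Mgst1, Gstm1 and Gsta3 together made up 80.9% of the control transferase TPM.

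The Ugt1a genes share their last exons on chromosome 1 and differ in the first, so their transcripts are hard to separate by short reads. Ugt1a1, the enzyme that conjugates bilirubin, held 243, 303, 165, 189 and 223 TPM in controls and 209, 177, 188, 159 and 81.0 TPM in labelled knockouts. Labelled knockout libraries 4 and 5 lay below every control (log2 fold change -0.56, SE 0.18, edgeR adjusted p = 0.37). Ugt1a9 held 56.8, 62.1, 27.5, 57.7 and 53.2 TPM in controls and 35.4, 53.0, 44.6, 27.0 and 29.7 TPM in labelled knockouts. Control library 3 lay among the labelled knockouts, and the other 4 controls lay above all 5 of them (log2 fold change -0.51, SE 0.16, edgeR adjusted p = 0.35). Ugt1a6a, which takes small planar phenols, held 61.7, 71.3, 36.8, 46.8 and 45.7 TPM in controls and 60.1, 51.4, 58.2, 33.3 and 21.9 TPM in labelled knockouts, and overlapped (log2 fold change -0.32, SE 0.20, edgeR adjusted p = 0.70). Ugt1a10, near 1 TPM, had a log2 fold change of -1.23 (SE 0.43, edgeR adjusted p = 0.41). All 7 tested Ugt1a genes had log2 fold changes below 0, with a median of -0.51. The median was -0.33 with the run covariate and -0.16 without the control libraries high in Fos, and in both fits 6 lay below 0 and 1 above. The genes are not separate measurements, since only 18.7% of the 31-base words of Ugt1a1 and 15.8% of those of Ugt1a6b were their own.

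In the Ugt2 family, whose enzymes conjugate steroids and drugs, the groups overlapped for every gene. Ugt2b5 held 721, 754, 514, 442 and 628 TPM in controls and 717, 835, 536, 485 and 664 TPM in labelled knockouts, fully overlapping (log2 fold change 0.02, SE 0.21, edgeR adjusted p = 0.98). Ugt2b36 held 414, 417, 336, 297 and 374 TPM in controls and 413, 416, 317, 328 and 321 TPM in labelled knockouts, again overlapping (log2 fold change -0.11, SE 0.16, edgeR adjusted p = 0.88). Ugt2b35 held 75.8, 84.1, 56.3, 53.4 and 69.9 TPM in controls and 54.6, 51.1, 45.2, 46.5 and 47.6 TPM in labelled knockouts. All labelled knockouts but library 1 were below every control, and library 1 was above control library 4 alone (log2 fold change -0.53, SE 0.16, edgeR adjusted p = 0.30). Ugt2b1 and Ugt2b34 had log2 fold changes of -0.68 (SE 0.24, edgeR adjusted p = 0.42) and -0.39 (SE 0.13, edgeR adjusted p = 0.41). Of 8 tested Ugt2 genes, 6 had log2 fold changes below 0 and 4 an unadjusted p under 0.05.

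The Ugt3a genes, whose enzymes use sugars other than glucuronic acid, lay closest to 0. Ugt3a1 held 37.5, 38.2, 30.6, 27.4 and 34.6 TPM in controls and 30.3, 60.1, 37.5, 21.1 and 32.9 TPM in labelled knockouts. Ugt3a2 held 122, 133, 88.6, 128 and 122 TPM in controls and 117, 176, 154, 102 and 96.3 TPM in labelled knockouts. Labelled knockout library 2 was the highest of the 10 for both genes. Their log2 fold changes were -0.02 (SE 0.20) and 0.03 (SE 0.13), with edgeR adjusted p of 0.99 and 0.96.

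No sulfotransferase gene passed the test, and none had an unadjusted p under 0.05. Sult1a1, the main phenol sulfotransferase, held 221, 187, 140, 314 and 219 TPM in controls and 241, 185, 211, 260 and 149 TPM in labelled knockouts, inside the control range throughout (log2 fold change -0.10, SE 0.18, edgeR adjusted p = 0.91). Sult1d1, which takes catecholamines, held 43.1, 48.6, 35.0, 34.9 and 28.6 TPM in controls and 41.0, 25.6, 29.4, 60.1 and 23.2 TPM in labelled knockouts, on both sides of the controls (log2 fold change -0.13, SE 0.27, edgeR adjusted p = 0.92). Sult1b1, which acts on thyroid hormones, held 21.2, 24.4, 17.8, 17.2 and 19.3 TPM in controls and 25.2, 14.0, 14.9, 18.0 and 8.08 TPM in labelled knockouts. Libraries 2, 3 and 5 of the labelled knockout were below every control and library 1 above them (log2 fold change -0.40, SE 0.21, edgeR adjusted p = 0.65). Sult1c2 had a log2 fold change of -0.44 (SE 0.35, edgeR adjusted p = 0.78).

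Sult2a8, a bile acid sulfotransferase and the most abundant Sult gene, held 306, 426, 370, 278 and 385 TPM in controls and 384, 357, 329, 292 and 137 TPM in labelled knockouts. All but labelled knockout library 5 lay in the control range (log2 fold change -0.36, SE 0.21, edgeR adjusted p = 0.69). Sult5a1 held 20.8, 11.3, 17.0, 13.5 and 21.1 TPM in controls and 20.1, 16.4, 26.8, 14.0 and 7.94 TPM in labelled knockouts, with labelled knockouts at both extremes (log2 fold change -0.14, SE 0.26, edgeR adjusted p = 0.91). Sult2a7, near 1 TPM, had a log2 fold change of 0.15 (SE 0.48, edgeR adjusted p = 0.95). Sult2a1, Sult2a2 and Sult3a1 stood at 4, 7 and 4 counts summed over all 10 libraries.

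The 5 genes with too few counts for the test, Mgst2, Sult1e1, Ugt1a2, Ugt2a2 and Gsto2, ranged from 4 to 18 summed counts in a group, and all 5 overlapped. Gsto2 held 18 counts in controls and 10 in labelled knockouts, and Mgst2 held 4 and 8.

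Summed over all 51 genes, the transferases made up 24101 ± 2426 TPM in controls and 21280 ± 3855 TPM in labelled knockouts (SD, n = 5). By library the sums were 25313, 23698, 20685, 23556 and 27255 TPM in controls and 26204, 21098, 23206, 20097 and 15797 TPM in labelled knockouts. Labelled knockout library 1 lay among the highest controls and library 5 below every other library. The Gstm sum was 2959 ± 529 against 2088 ± 653 TPM, the Ugt1a sum 418 ± 115 against 312 ± 94.8 TPM, and the Ugt2 sum 1567 ± 279 against 1452 ± 235 TPM. The Sult1 sum was 277 ± 62.6 against 263 ± 64.2 TPM, and none of these sums separated the groups.

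Labelled knockout library 5 stood apart for most of these genes. It was the lowest of the 10 libraries for 30 of the 46 tested transferase genes, or 65.2%, and for 34.1% of all tested genes. The median log2 ratio of a transferase gene's TPM to its control mean was -0.96 there, against 0.11, -0.26, -0.18 and -0.36 in labelled knockout libraries 1 to 4. In controls 1 to 5 the medians were 0.11, 0.20, -0.38, -0.11 and 0.02. Labelled knockout library 1 thus sat at the level of the higher controls and control library 3 at that of labelled knockout library 4. Labelled knockout library 1 shares its run with control libraries 1 and 2. Libraries 2, 4 and 5 of that group form the third run, where group and run cannot be told apart. Saa1 stood at 13331 TPM in labelled knockout library 5, 6733 TPM in labelled knockout library 4 and 6586 TPM in control library 4, and from 49.7 to 874 TPM in the other 7. Control library 4 had that Saa1 level with a transferase median of -0.11. The part of the acute phase transcripts in the transferase levels was not tested. These ranks and medians are of TPM, without the library scaling (TMM) used for the tests. Control library 3 and labelled knockout library 5 had the lowest TMM factors, 0.869 and 0.892. Mitochondrial transcripts held 16.6% and 12.01% of their counts, and from 5.82% to 12.77% in the other libraries. The part of library composition in the transferase levels was not tested either. Gstm2 was also low in labelled knockout library 1, at 48.1 TPM, where the median over the transferase genes was 0.11.

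**Figure D4:**
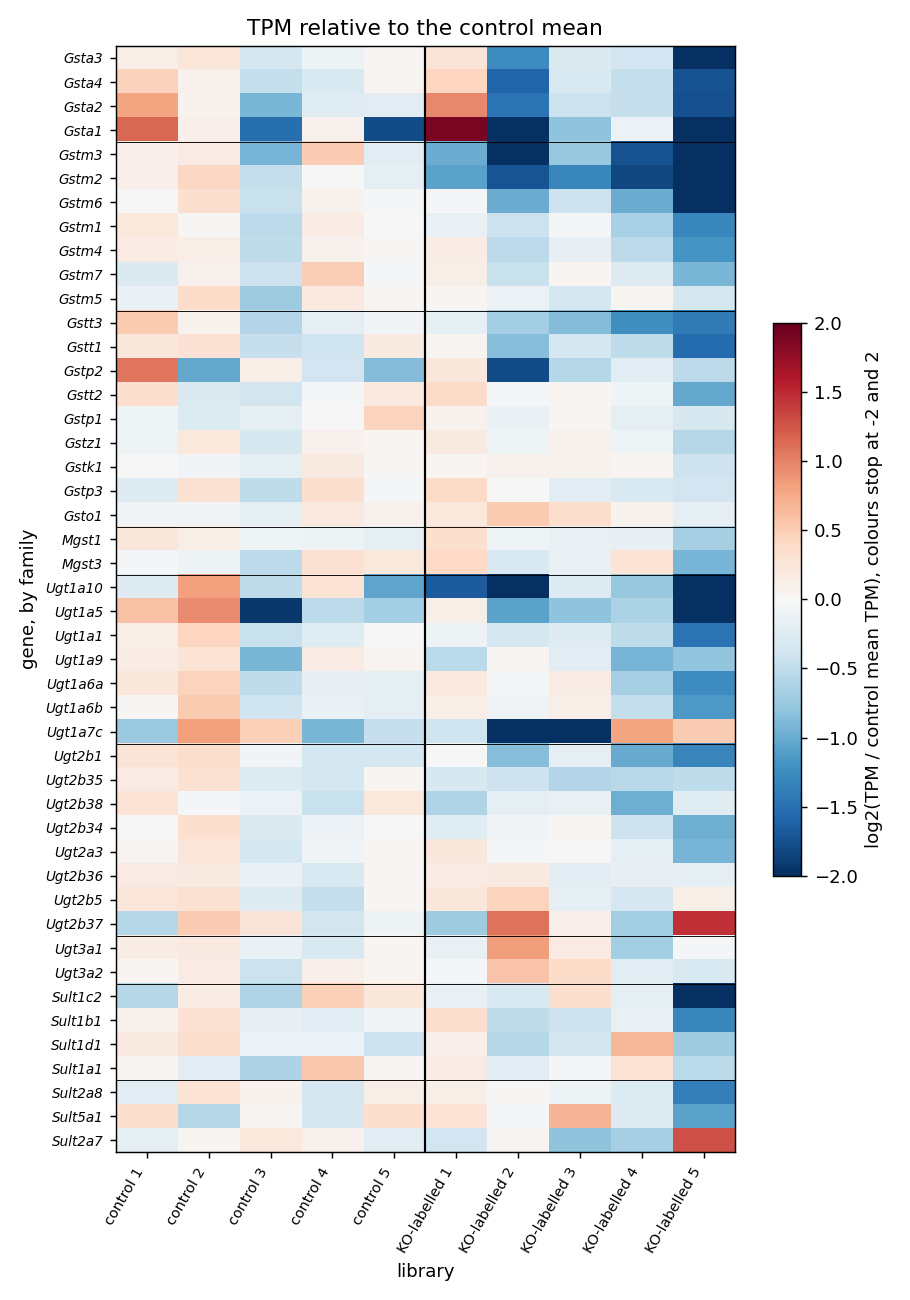
Log2 ratio of TPM to the control mean for each of the 46 tested transferase genes (vertical, by family) in each of the 10 libraries (horizontal), with colours that stop at -2 and 2 and a line between the groups. Labelled knockout library 5 is low for most genes (median -0.96) and labelled knockout library 1 is not (median 0.11). Gstm2 is below the control mean in all 5 labelled knockouts, as are several other genes, among them Gstm1, Gstm3, Gstm6 and Gstt3.

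The genes that supply and clear what these enzymes use were described by 8 lists holding 130 distinct tested genes, of which edgeR's quasi-likelihood test called 1 higher and 1 lower. Among 21 genes of glutathione synthesis, recycling and breakdown, none was called by edgeR, DESeq2 or limma, 1 had an unadjusted p under 0.05, and 14 had log2 fold changes above 0 and 7 below (median 0.01). Gpx1, a glutathione peroxidase, stood at 2578 ± 555 and 2776 ± 298 TPM. Among 22 targets of NRF2, the factor that turns on genes of the antioxidant response, none was called by the 3 tools, 2 were higher and 2 lower at an unadjusted p under 0.05, and the median was -0.09. Hmox1, a heme oxygenase and NRF2 target, had a log2 fold change of 0.63 (SE 0.22, edgeR adjusted p = 0.41).

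Of 13 genes of UDP-glucuronate supply and removal, none was called by the 3 tools and 3 were lower at an unadjusted p under 0.05 (median -0.14). Ugp2, which makes UDP-glucose, stood at 158 ± 65.5 and 111 ± 41.4 TPM (log2 fold change -0.59, SE 0.27, edgeR adjusted p = 0.59). Of 15 genes of sulfate and PAPS supply, none was called by the 3 tools or had an unadjusted p under 0.05 (median -0.01), with Cdo1, which oxidises cysteine, at 751 ± 170 and 782 ± 251 TPM. Of 21 other conjugating enzymes, none was called by the 3 tools and 1 was lower at an unadjusted p under 0.05 (median -0.14).

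Among 21 xenobiotic sensors and their other targets, Cyp1a2, a target of the aryl hydrocarbon receptor that is also one of the 11 pericentral markers, was called lower (144 ± 65.8 TPM in labelled knockouts, 416 ± 76.7 TPM in controls, log2 fold change -1.65, SE 0.30, edgeR adjusted p = 0.034). The call held in 9 of 22 alternative fits, with adjusted p from 5.1e-06 to 0.86. It was lost on leaving out any of labelled knockout libraries 2, 3 and 4 or control libraries 1, 2, 3 and 5. The list's median was -0.19, with 15 of 21 below 0. At an unadjusted p under 0.05, 5 were lower and none higher. DESeq2 called 2 lower, Cyp1a2 and the drug-metabolising Cyp2c29, the latter named after its values were seen (601 ± 133 TPM in controls, 314 ± 112 TPM in labelled knockouts, log2 fold change -1.04, SE 0.21, edgeR adjusted p = 0.055), and limma called neither. Of 12 transporters of conjugates, 10 had log2 fold changes below 0 (median -0.34) and none was called by edgeR or limma, with 1 at an unadjusted p under 0.05. DESeq2 called that gene, the hepatocyte uptake carrier Slco1b2 (log2 fold change -0.70, SE 0.19, edgeR adjusted p = 0.24).

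Of 8 relatives that the symbol rule does not take, 3 were higher at an unadjusted p under 0.05 and none lower, where 5.03% of all tested genes were higher. Only Ltc4s was called, and it rose. This membrane enzyme of the MAPEG family, to which the Mgst genes belong, joins glutathione to leukotriene A4 and is known from myeloid cells. It stood at 1.16, 1.85, 0.771, 0.385 and 1.67 TPM in controls and 3.44, 6.26, 6.82, 9.12 and 8.88 TPM in labelled knockouts, with no overlap (log2 fold change 2.62, SE 0.42, edgeR adjusted p = 0.012). Among all tested genes, 1.31% were apart in TPM with the labelled knockout higher. The call of Ltc4s held in 19 of 22 alternative fits, with adjusted p from 3.6e-07 to 0.38. It was lost with the run covariate and without the libraries high in Saa1 or in Fos. All 6 Kupffer cell markers had log2 fold changes above 0 (median 0.75, summed level 77.2 to 126 TPM in controls and 117 to 249 TPM in labelled knockouts), of which edgeR called 0, DESeq2 3 and limma 1, with 5 higher at an unadjusted p under 0.05. The part of these cells in the Ltc4s level was not tested. The 6 endothelial markers had a median of 0.35, with 2 higher at an unadjusted p under 0.05. Of 8 male-biased liver genes none was called by the 3 tools, 3 were lower at an unadjusted p under 0.05, and the median was -0.46.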

How the data were processed

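Each library had a table of estimated counts and a table of TPM per gene, both deposited by the authors. The estimated counts deposited by the authors were used for tests and the TPM deposited by the authors for levels. Trim Galore 0.6.4, kallisto 0.4.6 and the build GRCm38.p6 are named per the submitters' processing notes. How transcripts were summed to genes and whether strand was used are not given in the sources used here. Of nonzero estimated counts, 38.3% were whole within 1e-06, and rounding them changed no library total by over 0.00078%. GENCODE M21 (GRCm38) gave symbols and coordinates for 55144 gene IDs and left 241 unmatched.

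Genes passing filterByExpr (12872) were scaled by TMM (factors 0.869 to 1.107) and compared in edgeR 4.0.16 (R 4.3.3) by a robust quasi-likelihood fit with no term but the group. Adjusted p-values are Benjamini-Hochberg values over all tested genes, and a gene was called at an adjusted p under 0.05. Fold changes are labelled knockout over control, and log2 CPM used a prior count of 2. The quasi-likelihood test gives no standard error. Each SE of an edgeR fold change is its absolute value divided by the square root of the F statistic. In simulated counts of the same comparison (12686 genes tested), 20% of genes changed 1.5-fold, 52% changed 2-fold, 96% changed 4-fold and 98% changed 8-fold were recovered, and 9 of 140 calls were not changed genes. Sequence sharing is the percentage of 31-base words of a gene's GENCODE transcripts found in no other gene's transcripts.

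The genes and lists described were chosen with earlier results of these data known. Test values are given, per family, for called genes, the 3 with the smallest p and the 2 most abundant, and values by library for called genes, the smallest p and the 2 most abundant. The values by library of Gstm3 and Ltc4s and those of Gsta1, Gstk1, Gsto1 and Cyp2c29 were added after their values were seen. From each other list, called genes or otherwise the one with the smallest p and the most abundant were candidates for naming. Alternatives were DESeq2 1.42.0, limma 3.58.1 on log2(TPM + 1) and log2(TPM + 0.1), other scalings and filters, a length offset, a replicate block, the run of consecutive file numbers as a covariate, and fits without single libraries, without the 3 libraries with Saa1 over 1000 TPM and without the 2 with Fos over 20 TPM. An adjusted p under 0.10 in the main fit was also counted as an alternative.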

Additional observations from a re-analysis of the deposited data

Results flagged for a closer look

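In 46 groups of 5 libraries, the values by library of 23 genes were examined for a library far from the other 4 by Dixon's criterion, which chance meets in about 1 of 20 groups. It was met in 2, both times by control library 3. Ugt1a9 stood at 27.5 TPM there and at 53.2 to 62.1 TPM in the other controls. Ugt3a2 stood at 88.6 TPM there and at 122 to 133 TPM in the other controls. Control library 3 was the lowest of the 10 libraries for 26.9% of all tested genes and for 10.9% of the tested transferase genes.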

How the results depend on the processing

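Gstm2 was called in each of the 23 alternatives, among them the looser threshold of 0.10 in the main fit, which could not remove the call. DESeq2 called 3 transferase genes (Gstm2, Gstm3 and Gstt3), and leaving out 1 library gave 1 to 3, with 3 without labelled knockout library 1 (Gstm2, Gstm6 and Gstt3). Over all genes, 46 were called; DESeq2 called 152, the run covariate left 5, fits without the libraries high in Fos 17 and in Saa1 29, and fits without 1 library 33 to 77, the 77 without labelled knockout library 1. Of the pathway genes 2 were called; DESeq2 called 4, each limma fit 1, and fits without 1 library 1 to 3. The run covariate and the fits without the libraries high in Fos or in Saa1 called 0, with 6, 6 and 13 at an unadjusted p under 0.05. The fits without libraries rest on fewer samples, and in the fit with the run covariate the third run holds no control. The cause of these changes in the number called was not tested for any alternative.

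The replicate numbers did not pair the libraries: deviations of same-numbered libraries correlated at 0.28, 0.08, -0.10, -0.04 and 0.11. With the replicate block, 2 transferase genes were called (Gstm2 and Gstt3, the latter at -0.90 with an adjusted p of 0.0094) and 1 pathway gene.

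Signs turned for 12 genes. With the run covariate the log2 fold change was 0.12 for Gsta2, 0.01 for Gstz1, 0.03 for Mgst3, 0.02 for Sult1c2, -0.71 for Sult2a7, 0.29 for Sult5a1, 0.03 for Ugt1a6a and -0.15 for Ugt2b5. Without the Fos-high libraries it was 0.01 for Gsta2, 0.04 for Sult1d1 and 0.03 for Ugt3a1, and without the Saa1-high libraries -0.56 for Sult2a7, -0.12 for Ugt2b5 and 0.00 for Ugt3a1. Sult2a7 was at -0.08 and -0.01 in limma (pseudocounts 0.1 and 1) and -0.12 with the replicate block. Ugt3a1 was at 0.06 with library totals only, 0.04 in both limma fits and 0.01 with the length offset. Without 1 library, Sult1a1 ran from -0.20 to 0.02, Sult1d1 from -0.41 to 0.02, Sult2a7 from -0.58 to 0.34, Ugt2b5 from -0.10 to 0.11, Ugt3a1 from -0.14 to 0.12 and Ugt3a2 from -0.02 to 0.09. The cause was not tested. Of the other alternative values for single genes, 696 kept direction and side of the threshold, and 5 were calls gained by Gstm3, Gstm6 and Gstt3.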
